A study of Homo sapiens with 10 samples.

Results

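The genes described here are the components of the transcription factor AP-1 and a set of immediate early genes during hepatic differentiation of human embryonic stem cells. They were chosen by symbol, with no threshold on their values but with earlier results of these data known, so their counts beside the background are descriptions. The symbols were FOS, FOSL2, JUN, JUNB, JUND, EGR1, IER2, IER3 and ATF3, and all 9 were found once each among the 12125 genes of the deposited table. The cells were of H1, a widely used human embryonic stem cell line kept on Matrigel in mTeSR1, and 10 libraries between day 0 and day 21 of the protocol were made, 1 for each day sampled. The day 0 library holds undifferentiated cells, and none of the factors of the differentiation protocol is listed for it. What mTeSR1 itself supplies is not given, so day 0 is not a baseline free of factors. The libraries of days 1, 2 and 3 hold cells in RPMI/B27 without insulin and with Activin A at 100 ng per ml, and those of days 5 and 7 hold cells in RPMI/B27 with insulin, FGF4 at 30 ng per ml and BMP2 at 20 ng per ml. The libraries of days 9 and 11 hold cells given HGF and KGF at 20 ng per ml in the same medium, and that of day 21 holds cells given Oncostatin M (OSM) at 20 ng per ml in a hepatocyte medium without EGF. The day 13 library carries an OSM label, whereas the protocol has HGF and KGF given up to day 13, and here it is named by its day. All libraries are of 1 cell line, and none is a culture kept in the differentiation medium without the added factors. How long before RNA collection the medium was last changed is not given in the sources used here.

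AP-1 is a dimer of basic leucine zipper proteins, formed by JUN proteins (JUN, JUNB, JUND) alone or with FOS proteins (FOS, FOSL2) or with ATF proteins such as ATF3. Immediate early genes are transcribed within minutes of a growth factor, serum or stress signal, without the need for new protein, mostly through MAP kinases that act on serum response factor (SRF) with its ELK partners, on CREB and on JUN itself, and their RNAs are short-lived. In the liver, AP-1 is known from regeneration after partial hepatectomy, when JUN and FOS are induced within the first hours.

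The deposited values are GC-normalized whole numbers that share 1 distribution across libraries, with totals between 2330948 and 2362740 and medians of 81 or 82, so they do not show the depth of each library and are not counts. The study gives only an average depth, a shallow one, and low values may rest on few reads. None of the 9 genes reached the highest levels of this scale, where values are shared between genes. Differences are given on the log2(value + 1) scale, which understates the change of low genes, and a gene was called higher or lower at a difference of at least 2-fold on this scale with the larger value at least 50. With 1 library per day no difference has a replicate check and no p-value is given. As a measure of how far 2 libraries of the same medium lie apart, the range from the 5th to the 95th percentile of the difference between days 9 and 11 was taken over the 500 genes nearest in level to each gene. True changes between the pair are part of this range. It is also a low measure, because fewer genes were called between days 9 and 11 than in any other step between successive libraries. Of genes tested, 1.04% were higher and 0.568% lower in this step, against 4.38% and 2.78% from day 1 to day 2, also of 1 medium. The values are not per length, so the levels of different genes are not compared. The stage markers moved along the labelled course, with POU5F1 at 4861 on day 0 and 5 on day 21, SOX17 at 2 and 790 on days 0 and 3, HNF4A at 0 and 1044 on days 0 and 7, and ALB at 168 and 4866 on days 13 and 21. Summed markers of other cells also rose. The summed value of 7 stromal markers was 225 to 666 up to day 5, 4294 on day 7 and 23049 on day 21. Of 8 blood and macrophage markers listed, 4 were found (PTPRC, CD68, HBE1, HBZ), with a sum of at most 64 up to day 9. On days 11, 13 and 21 the sum was 538, 3462 and 2000, of which the globin HBE1 made 446, 2968 and 1248. CD68 had 14, 50 and 259 on these days. PTPRC had 39 on day 0, 0 on days 3 to 13 and 65 on day 21. The sum of 3 endothelial markers was 253 to 572 up to day 7 and 744 to 1864 later. In bulk libraries, a change in the number of cells of a type and a change of RNA per cell cannot be told apart.

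Windows before the RefSeq start sites of 8 of the 9 genes were found in GRCh38.p14, and none is shown for IER3. The 4 windows below are printed because EGR1 and FOS moved together on days 9 to 13, FOSL2 had the largest ratio of day 21 to day 0 of the 9 genes, and JUN was high at both the first and the last day of treatment. Each runs over the 250 bases before the start site, 5′ to 3′ on the strand of the gene. Capitals mark the CArG box (the site of SRF), the 5 bases TGACG of the CREB site, on either strand, and TATAAA. The AP-1 site counted below does not contain the 5 bases of the CREB site.
EGR1 (chr5:138465229-138465478, plus strand): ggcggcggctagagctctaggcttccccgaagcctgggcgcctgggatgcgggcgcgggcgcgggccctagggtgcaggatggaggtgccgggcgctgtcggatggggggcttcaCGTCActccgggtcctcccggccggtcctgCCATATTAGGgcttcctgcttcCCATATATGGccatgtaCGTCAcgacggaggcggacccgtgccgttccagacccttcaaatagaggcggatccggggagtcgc
FOS (chr14:75278578-75278827, plus strand): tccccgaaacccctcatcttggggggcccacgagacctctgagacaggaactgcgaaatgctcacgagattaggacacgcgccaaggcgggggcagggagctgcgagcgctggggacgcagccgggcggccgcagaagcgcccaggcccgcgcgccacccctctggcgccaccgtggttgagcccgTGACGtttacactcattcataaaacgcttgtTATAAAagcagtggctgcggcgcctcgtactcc
FOSL2 (chr2:28392608-28392857, plus strand): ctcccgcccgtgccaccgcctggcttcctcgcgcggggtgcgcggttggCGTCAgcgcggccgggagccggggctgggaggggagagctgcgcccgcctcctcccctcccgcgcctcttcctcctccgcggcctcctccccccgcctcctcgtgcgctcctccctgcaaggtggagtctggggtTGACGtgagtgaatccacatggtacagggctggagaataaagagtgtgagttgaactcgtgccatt
JUN (chr1:58784048-58784297, minus strand): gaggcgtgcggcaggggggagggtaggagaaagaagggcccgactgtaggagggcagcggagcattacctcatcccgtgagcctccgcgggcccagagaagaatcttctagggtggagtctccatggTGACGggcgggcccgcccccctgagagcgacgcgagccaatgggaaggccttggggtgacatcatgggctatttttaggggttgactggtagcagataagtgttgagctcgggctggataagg
TGACG, or its reverse complement CGTCA, was found in the windows of 7 of the 8 genes, all but ATF3, and in 26.9% of the 12979 windows of genes in the deposited table. The EGR1 window held 2 CArG boxes, from -105 to -96 and from -83 to -74 relative to the start. No other of the 8 genes had one within its window, against 1.05% of the windows of genes in the table. Bases farther than 250 from the start were not searched, so genes without a box here, FOS included, may have one there. The full site TGACGTCA, which contains TGACG, was found for JUND only, and the AP-1 site TGAGTCA for none of the 8, against 2.47% and 2.83% of the windows of genes in the table. TATAAA was found for FOS, JUNB and 1 of the 2 windows of ATF3, and in 6.08% of the windows of genes in the table. These matches describe the letters in these windows and not the binding of a factor.

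**Figure D1:**
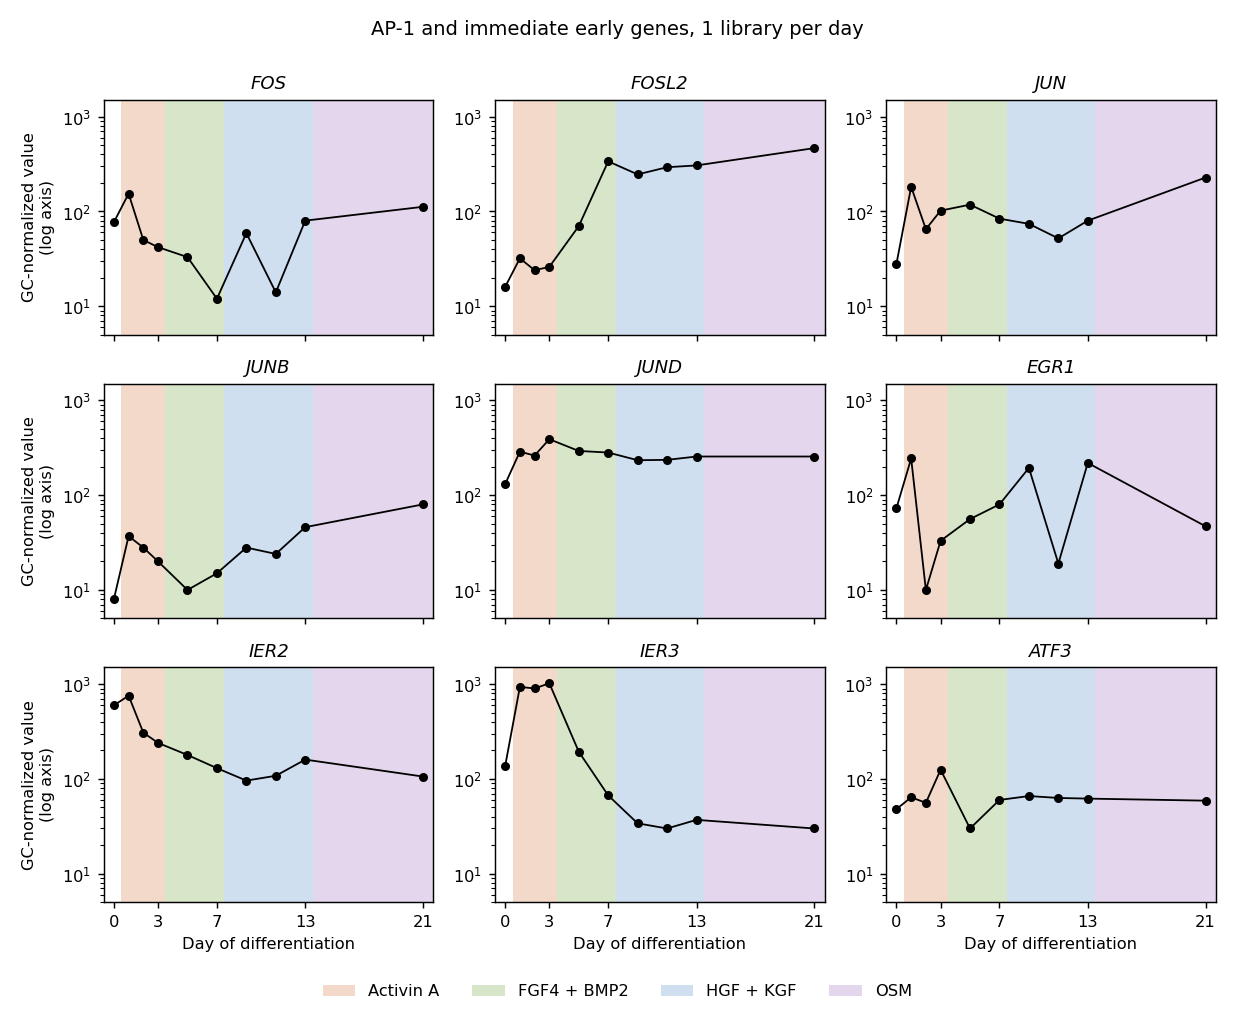
GC-normalized value (log axis) of each of the 9 genes against the day of differentiation, 1 point for each library, with shading for the factors given under the protocol (the day 13 library carries an OSM label). IER3 was at 901 to 1022 on days 1, 2 and 3 and at or below 67 from day 7, FOSL2 passed from 26 on day 3 to 338 on day 7, and EGR1 and FOS were low on day 11 between higher values on days 9 and 13.

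Of the FOS family, FOS and FOSL2 followed different courses, as the plot of values by day shows. FOS, the inducible partner of JUN (ENSG00000170345, listed on chromosome 14 from 75745477 to 75748933), had values of 77, 154, 50 and 42 on days 0, 1, 2 and 3, of 33 and 12 on days 5 and 7, of 59, 14 and 80 on days 9, 11 and 13, and of 112 on day 21. Its highest library was that of day 1 and its lowest that of day 7, a range of 3.58 on the log2 scale, and it stood at 100 or more only on days 1 and 21. FOSL2 encodes Fra-2, a longer-lived FOS protein (ENSG00000075426, chromosome 2 from 28615315 to 28631669), and had 16, 32, 24 and 26 on days 0 to 3, then 70 and 338 on days 5 and 7, 246, 293 and 306 on days 9, 11 and 13, and 466 on day 21. All libraries from day 7 on were above all earlier ones, and the value of day 21 was 29.1 times that of day 0. Over the same interval stromal and liver markers also rose, from a summed value of 309 on day 3 to 4294 on day 7 for the 7 stromal markers and from 28 to 1044 for HNF4A, and their part in the course of FOSL2 was not tested.

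Of the JUN family, JUN and JUNB were lowest on day 0 and highest on day 21. JUN, the founding AP-1 protein (ENSG00000177606, chromosome 1 from 59246465 to 59249785), had 28 on day 0, 182, 65 and 102 on days 1, 2 and 3, 118 and 84 on days 5 and 7, 74, 52 and 80 on days 9, 11 and 13, and 228 on day 21. The libraries of days 1 and 21 stood above the rest, and that of day 0 below all others. JUNB, a weaker activator that can oppose JUN (ENSG00000171223, chromosome 19 from 12902310 to 12904124), had 8 on day 0, 37, 28 and 20 on days 1, 2 and 3, 10 and 15 on days 5 and 7, 28, 24 and 46 on days 9, 11 and 13, and 80 on day 21. JUNB was under 50 in every library but the last, and genes near its level ranged from -0.70 to 0.78 between days 9 and 11. JUND, the JUN protein made at a steady level in most cells (ENSG00000130522, chromosome 19 from 18390563 to 18392432), had 131 on day 0, 288, 262 and 390 on days 1, 2 and 3, and between 234 and 293 in the libraries of days 5 to 21. With a range of 1.57 on the log2 scale it varied least of the 9 genes, close to the median range of 1.65 over the 10746 genes with a largest value of at least 50, whereas the median of the 9 genes was 3.17.

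ATF3, a stress-induced partner of JUN proteins (ENSG00000162772, chromosome 1 from 212738676 to 212792877), had 48, 64, 56 and 125 on days 0 to 3, 30 on day 5, and between 59 and 66 in the libraries of days 7 to 21. Day 3 stood above and day 5 below all others, and the remaining 8 libraries lay between 48 and 66.

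EGR1, a zinc finger factor and a standard readout of ERK signalling (ENSG00000120738, chromosome 5 from 137801179 to 137805004), had 73, 244, 10 and 33 on days 0, 1, 2 and 3, 56 and 80 on days 5 and 7, 194, 19 and 219 on days 9, 11 and 13, and 47 on day 21. The libraries of days 1, 9 and 13 were high and those of days 2 and 11 low, with the highest value 24.4 times the lowest. IER2, a small nuclear protein (ENSG00000160888, chromosome 19 from 13261282 to 13265716), had 598 and 756 on days 0 and 1, then 308, 240, 179, 130 and 96 on days 2, 3, 5, 7 and 9, and 108, 160 and 106 on days 11, 13 and 21. The libraries of days 0 and 1 stood above all later ones. IER3, a regulator of cell survival also known as IEX-1 (ENSG00000137331, chromosome 6 from 30710976 to 30712331), had 137 on day 0, 936, 901 and 1022 on days 1, 2 and 3, 194 and 67 on days 5 and 7, and 34, 30, 37 and 30 on days 9, 11, 13 and 21. The 3 libraries with Activin A were far above the other 7, and the range of IER3, 5.04 on the log2 scale, was the largest of the 9 genes.

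Ordered by level, neighbouring days mostly lay within the spread of days 9 and 11 at that level. Of the 9 steps between neighbours in this order, 4 were above the 95th percentile of that spread for IER3, separating days 9 to 21, day 7, day 0, day 5 and the Activin A days, and 3 for FOSL2, separating days 0 to 3, day 5, days 7 to 13 and day 21. The other genes had 1 or 2 such steps. For FOS these lay between days 11 and 5 and between days 21 and 1, for JUN between days 0 and 11 and between days 5 and 1, and for JUND between days 0 and 9 and between days 5 and 3. For JUNB the step lay between days 13 and 21, for EGR1 between days 7 and 9, for IER2 between days 2 and 0, and for ATF3 between days 9 and 3. Of the 45 pairs of days, between 15 (JUND) and 36 (IER3) were outside this spread, which is a low measure.

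The first day with Activin A was compared with undifferentiated cells, a step that also changed the medium from mTeSR1 to RPMI/B27 without insulin. Of the 9 genes, 7 had a value of at least 50 on day 0 or 1, and 4 of these were higher on day 1, whereas 4.01% of the 8629 genes tested were. They were IER3 (6.83-fold, a log2 difference of 2.76), JUN (6.5-fold, 2.66), EGR1 (3.34-fold, 1.73) and JUND (2.2-fold, 1.13). No member was lower, against 4.71% of genes tested. FOS, at 77 and 154, had a log2 difference of 0.99, just under the threshold, and IER2 and ATF3 had differences of 0.34 and 0.41. JUNB (8 and 37) and FOSL2 (16 and 32) were under 50 in both libraries and were not called. The median difference of the 9 genes was 1.13, and that of the genes tested was 0.01.

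By day 3, the end of the Activin A step, the genes had separated. JUN, JUND, IER3 and ATF3 were higher than on day 0, by 3.64, 2.98, 7.46 and 2.60 times, and EGR1 and IER2 were lower, by 2.21 and 2.49 times. These 4 and 2 of the 9 genes, of which 7 passed the filter, stand beside 11.1% of genes tested that were higher and 9.07% that were lower.

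From day 3 to day 7, over the step with FGF4 and BMP2, FOSL2 was 13 times higher, a log2 difference of 3.65, and EGR1 was 2.42 times higher. IER3 was 15.3 times lower, a log2 difference of -3.91, and ATF3 was 2.08 times lower. Of all genes tested, 13.2% were higher and 12.8% lower, so that counts of 2 and 2 among the 7 members that passed the filter were not far from the background. FOS passed from 42 to 12, both under 50.

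From day 7 to day 13, FOS (12 and 80) and EGR1 (80 and 219) were higher and no member was lower, of 8 that passed the filter, against 9.65% and 8.21% of genes tested. From day 13 to day 21, over the step with OSM, JUN was 2.85 times higher and EGR1 4.66 times lower, of 8 that passed, against 8.57% and 9.08% of genes tested. FOSL2 and JUNB had log2 differences of 0.61 and 0.79 over this step, and JUND had 256 in both libraries. On day 11, in place of day 13, FOS was at 14 and EGR1 at 19, so their differences from day 7 would have been 0.21 and -2.02.

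Between the end points, FOSL2, JUN and JUNB were higher on day 21 than on day 0, by 29.1, 8.14 and 10 times, and IER2 and IER3 were lower, by 5.64 and 4.57 times. All 9 genes passed the filter, and 23.9% of genes tested were higher and 26.5% lower, so the counts of 3 and 2 were close to the background. FOS, EGR1 and ATF3 had log2 differences of 0.53, -0.62 and 0.29, and JUND, with 0.96, was just under the threshold. With median-of-ratios scaling JUND had 1.15 and was called, which made 4 genes higher.

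**Figure D2:**
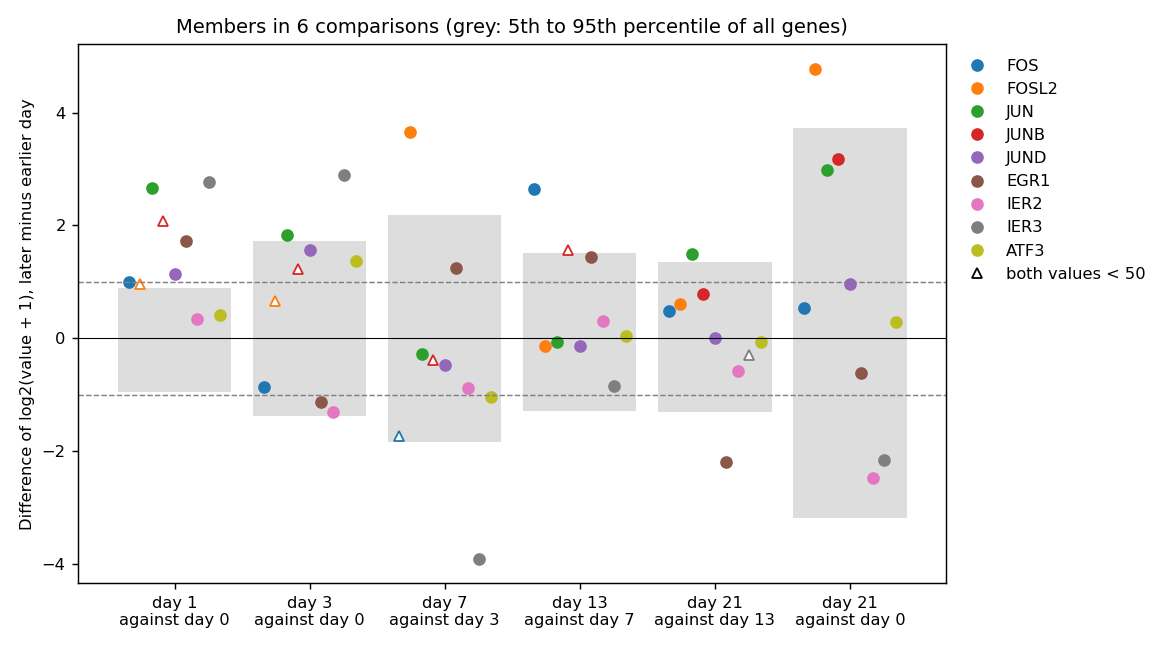
Difference of log2(value + 1), later minus earlier day, for the 9 genes in 6 comparisons, 1 library for each day. Grey boxes span the 5th to the 95th percentile of all genes tested, dashed lines mark 2-fold, and open triangles are genes under 50 on both days. On day 1 against day 0 all 9 points lie above 0, and on day 7 against day 3 FOSL2 (3.65) and IER3 (-3.91) lie outside the box on either side.

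Day 1 was a peak for part of the genes. This pattern and that of day 11 were chosen after the values had been seen. From day 1 to day 2, under the same factor, FOS (154 to 50), JUN (182 to 65), EGR1 (244 to 10) and IER2 (756 to 308) were each at least 2-fold lower, 4 of the 7 genes that passed the filter, against 2.78% of 8588 genes tested, and none was higher, against 4.38%. JUN and EGR1 were at least 2-fold lower on both day 0 and day 2 than on day 1, which 48 of 9003 genes were, or 0.533%. Of 23 other immediate early genes, CTGF, CYR61, GADD45B and RHOB showed the same peak. CTGF, a matrix-associated signalling protein, had 184, 2640 and 348 on days 0, 1 and 2, where the middle value lies on the shared top levels of the scale, and GADD45B, a stress-induced activator of MAP kinases, had 15, 308 and 100. IER3, JUND and JUNB did not fall back 2-fold on day 2, with 901, 262 and 28. The heat shock genes, chaperones induced by many stresses, had a median log2 difference of 0.50 from day 0 to day 1, with HSPA8 passing from 4856 to the top of the scale, and their part in the peak was not tested.

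On day 11, FOS and EGR1 departed from the neighbouring days. Days 9 and 11 share HGF and KGF, and day 13 has HGF and KGF by the protocol and OSM by its label. EGR1 had 194, 19 and 219 on days 9, 11 and 13, and FOS had 59, 14 and 80. The log2 differences from day 9 to day 11 were -3.29 for EGR1 and -2 for FOS, whereas the 5th to 95th percentile of genes nearest in level ran from -0.61 to 0.55 and from -0.65 to 0.69. Of these 500 genes each, 0 differed by as much as EGR1 and 1 by as much as FOS. The other 7 genes were inside this range, with JUN (74, 52 and 80) the next lowest at -0.50. FOS and EGR1 were the members that were lower, 2 of 7 that passed the filter, against 0.568% of 8444 genes tested, and none was higher, against 1.04%. They were also the members that were higher from day 11 to day 13, against 1.46%, and none was lower, against 1.17%. A value on day 11 at least 2-fold below both neighbours was found for 5 of 8743 genes, or 0.0572%, and the other 3 were RGPD6, RP11-386G11.10 and TMEM189-UBE2V1, of which the first has near-identical copies and the last is a read-through gene, so that reads can be split between loci. None of the 19 other immediate early genes that passed the filter was called in either step. At the shares of all genes tested, a count of 0 of 19 is close to the background. Among the 19, CTGF had 393, 276 and 454 and CYR61 450, 262 and 325. The heat shock genes had a median difference of 0.42 from day 9 to day 11 with 0 of 7 called. Without the day 11 library FOS and EGR1 had log2 differences of 0.43 and 0.17 from day 9 to day 13.

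Of the remaining steps between successive libraries, ATF3 was the member called from day 2 to day 3, at 56 and 125, where 2.59% of genes tested were higher and 1.08% lower. FOSL2 was higher (70 to 338) and IER3 lower (194 to 67) from day 5 to day 7, where 7.7% of genes were higher and 6.35% lower. From day 7 to day 9, FOS (12 to 59) and EGR1 (80 to 194) were higher, 2 of 8 that passed the filter, and none was lower, where 3.23% of genes were higher and 2.59% lower. FOS and EGR1 were thus called in the same direction in 4 of the 9 steps between successive libraries, from day 1 to day 2 and from day 7 to day 13, and in no step in opposite directions. In 4 of the other steps their differences, not called for both, had opposite signs, with -0.25 for FOS and 1.63 for EGR1 from day 2 to day 3, -0.34 and 0.75 from day 3 to day 5, -1.39 and 0.51 from day 5 to day 7, and 0.48 and -2.20 from day 13 to day 21.

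**Figure D3:**
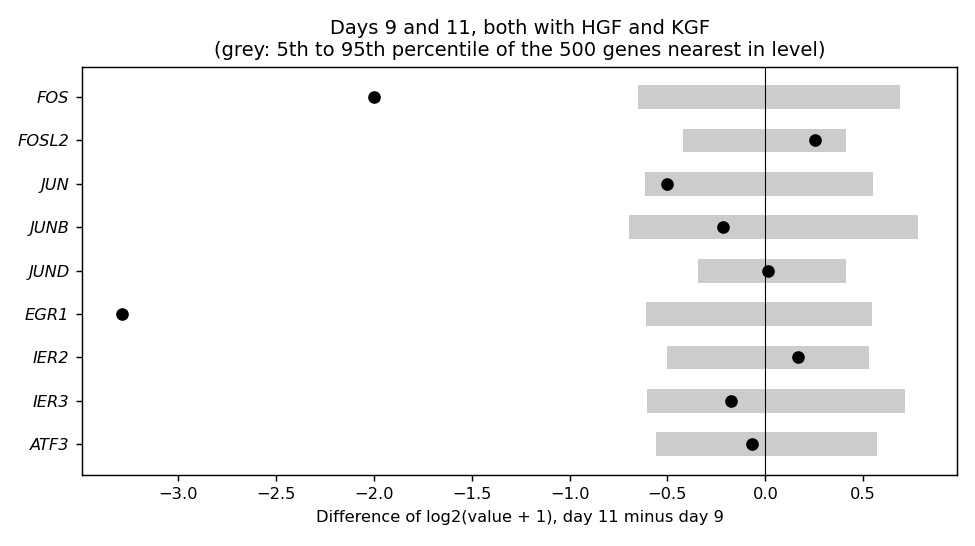
Difference of log2(value + 1), day 11 minus day 9, for the 9 genes (points, 1 library for each day) over the 5th to 95th percentile of the 500 genes nearest in level (grey bars). EGR1 at -3.29 and FOS at -2 lie left of their bars, and the other 7 genes lie on theirs.

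The 9 genes did not share 1 course. Across the 10 libraries, which share a cell line and a normalization, the Pearson r of log2(value + 1) was positive for 23 of the 36 pairs and negative for 13, with a median of 0.13, and these are descriptions without a test. The highest r was that of IER2 and IER3, 0.74 (Spearman's rho 0.83), and it was 0.93 without the 2 libraries farthest from the median of IER2. JUN and JUND had 0.67 (rho 0.66), and 0.53 without 2 libraries. JUN and JUNB had 0.62 (rho 0.40), and -0.06 without 2 libraries, so that their relation rested on those libraries. FOS and EGR1 had 0.45 (rho 0.47), and 0.51 without 2 libraries. FOSL2 ran against IER3 (-0.86, rho -0.72) and IER2 (-0.86, rho -0.77), and against both also without 2 libraries (-0.97 and -0.80).

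The genes outside the list with the most similar course over the 10 libraries were taken by Pearson r among genes with a mean value of at least 50. For FOSL2 they were APOB (0.99), AFP (0.99) and KLB (0.98), the first a lipoprotein component, the second a fetal plasma protein and the third a co-receptor of FGF signals. AFP stood at 18734, the top of the scale, in all libraries after day 5. APOB, at 4856 to 18734 in these libraries, also lay on shared top levels of the scale. For IER3 they were ZSWIM4, CNTNAP2 and PRKD3 (0.98 each), and ZSWIM4 had 120 on day 0, 456, 362 and 298 on days 1 to 3 and 94 on day 5. CNTNAP2 lay on shared top levels on days 1 to 3, at 3863, 4858 and 3863. For IER2 they were PGRMC1 (0.98), CHEK2, a checkpoint kinase (0.97), and HMGN5 (0.97). JUNB was nearest to TIMP3, an inhibitor of metalloproteases (0.94), SAMD4A (0.93) and LYRM2 (0.92), and JUND to RAB18 (0.94), KIAA1161 (0.91) and ROR2, a Wnt receptor (0.91). For the genes with isolated peaks the likeness was lower. FOS was nearest to AAAS (0.90), GTF2E2 (0.90) and WDR24 (0.87), JUN to APBB3 (0.88), ACADSB (0.86) and PPFIBP1 (0.86), ATF3 to CEP192 (0.86), CCNY (0.84) and FZD5 (0.84), and EGR1 to ITFG3 (0.80), C1orf123 (0.80) and TIA1 (0.77). Of the genes nearest to EGR1, ITFG3 had 281, 242 and 280 on days 9, 11 and 13, differences far smaller than those of EGR1.

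Other genes of the pathway were counted in the same comparisons. Of 16 symbols of further AP-1 partners and related factors, 9 were found. None of the 6 that passed the filter was called on day 1, where 4.01% of genes tested were higher and 4.71% lower. With such shares, a count of 0 is close to the background. On day 21 against day 0, 3 were higher (JDP2, MAFK, MAF) and 2 lower (MAFG, CREB1) of 7 that passed. Of genes tested, 23.9% were higher and 26.5% lower. MAF, a large basic leucine zipper factor, had 12 on day 0, 8 on day 3, 152 on day 7 and 642 on day 21, and was called higher between days 3 and 7, as FOSL2 was. JDP2, a repressor that pairs with JUN, had 48 on day 0 and 189 on day 13, CREM, of the cAMP-responsive factors, had 22 and 66 on days 0 and 2, and MAFG had 224 on day 0, 288 on day 3 and 111 on day 21.

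Of 33 symbols of other immediate early genes, older and newer names of 2 genes included, 23 were found. On day 1 against day 0, 8 were higher (ZFP36, ZFP36L2, CYR61, CTGF, CSRNP1, GADD45B, NFKBIA, RHOB) and 1 lower (IER5), of 17 that passed the filter, where 4.01% of genes tested were higher and 4.71% lower, with a median log2 difference over the 23 of 0.34. On day 3 against day 0, 11 were higher and 2 lower of 20 that passed, with a median of 1.08, where 11.1% of genes tested were higher and 9.07% lower. On day 21 against day 0, 9 were higher and 1 lower of 17, where 23.9% and 26.5% of genes tested were. SGK1, a kinase of the insulin and glucocorticoid response, had 31 on day 0, 9 on day 3, 100 on day 7 and 590 on day 21. IER5L was listed at 0 on day 0 and had 76 on day 5. NFKBIA, the inhibitor of NF-kB, had 34 on day 0 and 398 on day 3. SOCS3, a feedback inhibitor of OSM signalling, had 102 on day 13 and 184 on day 21, a difference under 2-fold. SOCS3 was highest on days 5 and 7, under FGF4 and BMP2, at 342 and 228.

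**Figure D4:**
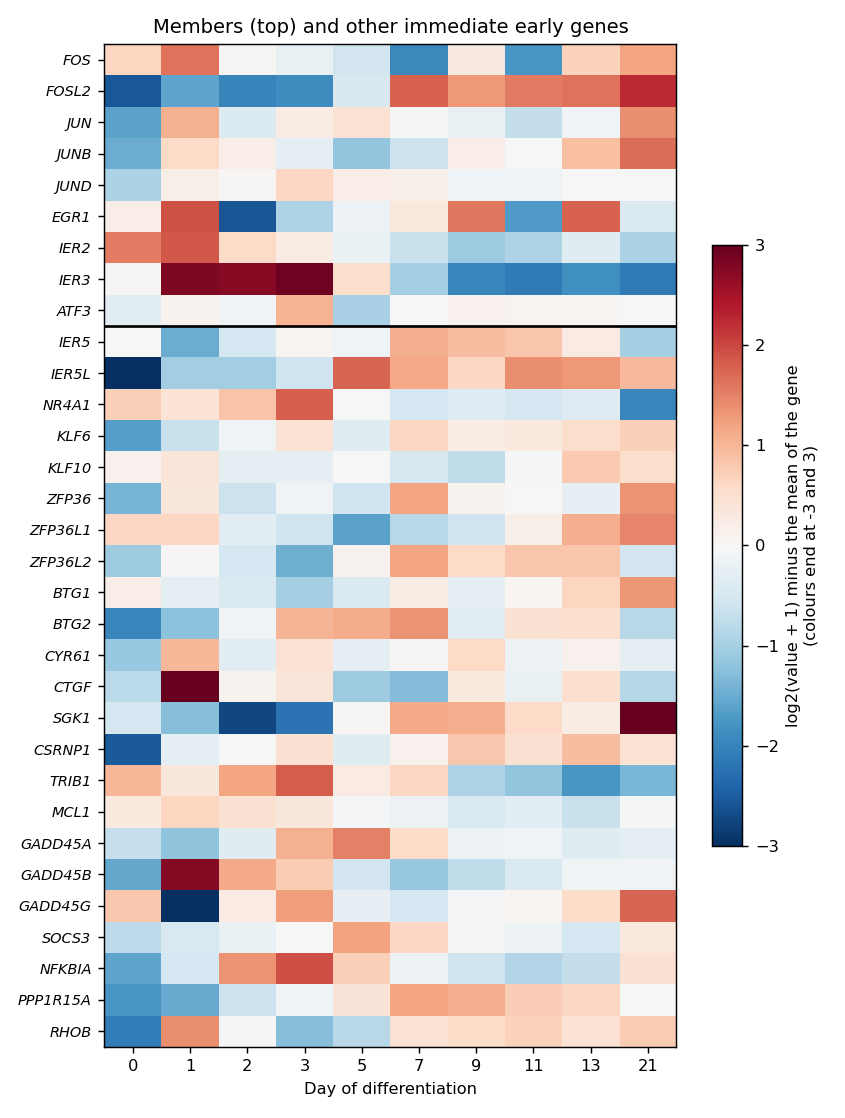
log2(value + 1) minus the mean of the gene over the 10 libraries, for the 9 genes (above the line) and 23 other immediate early genes (below it), by day, 1 library for each day, with colours ending at -3 and 3. CTGF and GADD45B are high on day 1 together with FOS, JUN and EGR1, and only FOS and EGR1 among these rows turn from high to low to high over days 9, 11 and 13 by at least 2-fold.

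Of 15 phosphatases and inhibitors that act back on MAP kinases, 14 were found, and 1 was higher (DUSP4) and 1 lower (DUSP14) on day 1 of 11 that passed the filter, where 4.01% and 4.71% of genes tested were. By day 21, 7 were lower than on day 0 and 1 was higher (DUSP1), of 11 that passed the filter, against 26.5% and 23.9% of genes tested. DUSP6, the ERK phosphatase, had 1280 on day 0, 314 on day 3, 840 on day 5 and 140 on day 7, and SPRY4, an inhibitor of receptor tyrosine kinase signals, had 854 on day 0 and 24 on day 21. DUSP4 had 34 on day 0, 350 on day 5 and 16 on day 9, and SPRY2 had 158, 398 and 341. EGR1 had 73, 56 and 194 in these libraries.

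Of 23 symbols of upstream kinases and serum response factors, both names of 2 genes included, 21 were found, and changes were few. On day 1, SRF was the gene called higher, at 207 and 418, none was lower of 20 that passed the filter, where 4.01% of genes tested were higher and 4.71% lower, and SRF was at 123 on day 5 and 53 on day 21. MAPK3 had 70 on day 0 and 266 on day 13, MAPK8, a JUN kinase, had 144 on day 0 and 251 on day 5, and HRAS had 47 on day 0 and 142 on day 2. Between days 9 and 11 none of the 20 that passed was called, where 1.04% of genes tested were higher and 0.568% lower. The same held between days 11 and 13, where 1.46% were higher and 1.17% lower. With such shares, a count of 0 is close to the background.

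Of 19 symbols of known targets of AP-1, both names of 1 gene included, 16 were found. None was higher on day 1 and 2 were lower of 11 that passed the filter, where 4.01% and 4.71% of genes tested were. On day 7 against day 3, 5 were higher and 0 lower of 13 that passed the filter, against 13.2% and 12.8% of genes tested. Among the 5, KRT8 passed from 3864 to 18734, both shared top levels of the scale, so its fold is not measured. On day 21 against day 0, 7 were higher and 3 lower of 15 that passed, where 23.9% and 26.5% of genes tested were. CD44, the hyaluronan receptor, had 7 on day 3, 52 on day 7 and 902 on day 13, and PLAU, the urokinase, had 60 on day 3, 246 on day 7 and 10 on day 13. MMP9 had 39 on day 0 and 60 on day 21 and at most 8 on days 2 to 13. MT2A, one of a family of similar genes between which reads can be split, had 130 on day 0 and 26 on day 1. Many of these genes are expressed by stromal cells as well.

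Of 10 genes listed for the response to ATF4, which also acts on ATF3, and for related stress responses, all were found. From day 0 to day 3, when ATF3 was called higher, 1 was higher (HSPA5) and 1 lower (CHAC1) of 7 that passed the filter. This was near the 11.1% and 9.07% of all genes tested. From day 3 to day 5, when ATF3 passed from 125 to 30, 3 were lower and 0 higher of 8. VLDLR had 418 and 48 on days 3 and 5, ASNS, the asparagine synthetase, 282 and 122, CHAC1 54 and 18, and DDIT3 47 and 72. ATF3 was itself called lower over this step, as IER3 was, whereas FOSL2 was called higher, against 7.3% and 7.76% of genes tested. Of the 7 heat shock genes, 1 was higher on day 1 than on day 0 and none lower, where 4.01% and 4.71% of genes tested were. It was HSPA8, which passed between shared top levels of the scale, so its fold is not measured. On day 7, 3 were lower than on day 3, where 12.8% were. HSPA1A, which shares nearly all its sequence with HSPA1B, had 352 on day 3, 61 on day 7 and 133 on day 9, HSPB1 had 336, 57 and 138, HSP90AA1 4858, 1888 and 1279, and HSPA8 3862, 3862 and 4858. The values 3862 and 4858 also lie on shared top levels.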

How the data were processed

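Bulk RNA-seq libraries of H1 cells, 1 for each of 10 days, were analysed. The authors prepared TruSeq libraries, aligned reads to an Ensembl transcriptome with Bowtie2 2.2.0 and RSEM 1.2.17, and normalized for GC content with EDASeq. The deposited values are scores: whole numbers that share 1 distribution across libraries, so the depth of each library is unknown (the study states only an average) and no counting interval is given. Sharing a distribution hides differences in total RNA between days, and GC normalization shifts a gene by its GC content. Columns were matched to days by name and sample title. The processing notes name hg19 and mm10 without roles, and intervals are printed as deposited. Promoter windows are RefSeq, GRCh38.p14, and no coordinate was converted.

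Genes were called at a 2-fold difference of value + 1 with the larger value at least 50, read beside the share of all genes tested. All members are named, with the 3 most similar genes by Pearson r (mean value at least 50) and, for each list, the 4 genes of largest range with a highest value of at least 50. Other genes were named after their values were seen. The members and lists were chosen with earlier results of these data known. Alternatives were pseudocounts of 0.1 and 5, no filter, a minimum of 200, a fold of 4 and median-of-ratios scaling. Python 3.11.15, numpy 2.4.6, pandas 2.3.3, scipy 1.17.1 and matplotlib 3.10.9 were used, and the code was tested on simulated data. A few listed genes are not reported here.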

Additional observations from a re-analysis of the deposited data

How the results depend on the processing

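The depth of each library is unknown, the average the study states is shallow, and low values such as 12 for FOS on day 7 or 10 for EGR1 on day 2 are the least certain. Leaving out a replicate was not possible with 1 library for each day. No paired analysis was possible because each day holds 1 library. Of 72 counts of members under the alternatives, 59 stayed within 1.5 times the reported count. At a fold of 4 the higher members fell to 2 on day 1 against day 0, 1 on day 3 against day 0, 1 on day 7 against day 3, 1 on day 13 against day 7 and 0 on day 21 against day 13, and the lower ones to 0 on day 3 against day 0 and 1 on day 7 against day 3. With a larger value of at least 200, 2 were higher and 1 lower on day 3 against day 0, 1 higher and 1 lower on day 7 against day 3, 1 higher on day 13 against day 7 and 1 lower on day 21 against day 0. Both alternatives can only lower a count. The other pseudocounts, no filter and median-of-ratios scaling changed no count by over 1.5 times, but scaling added JUND to the higher members on day 21 against day 0 (4 in place of 3). Without the filter, 5 in place of 4 were higher on day 1 and on day 3, each against day 0. It also gave 3 in place of 2 lower on day 7 against day 3 and higher on day 13 against day 7. All 162 single differences under other pseudocounts and scaling moved by less than the standard deviation between days 9 and 11 at that level, and none that was called changed sign. Scaling moved the median of all genes by 0.19 on the log2 scale on day 21 against day 0 and by less than 0.1 in the other 5 comparisons.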
